A study of Mus musculus with 36 samples.

Results

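Hypoxia, a supply of oxygen below what a tissue uses, was compared here between tumours rather than between treatments. The 9 Lewis lung carcinoma (LLC) tumours with the highest level of 6 hypoxia genes were set against the 9 with the lowest level. They came from 28 tumour arrays that were bright enough to score, of 30 tumours in the series. The score of a tumour was the mean log2 value of Ndrg1, Ankrd37, Kdm3a, Slc2a1, Adm and Vegfa in the authors' normalized intensities, with values under 64 raised to 64, and the tumours were chosen by these measured values alone. An array was kept when the 75th percentile of its deposited signal was over 110. The labels name no hypoxia group, so "high" and "low" stand for ranks of this score, and oxygen was not measured.

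Cells sense oxygen through prolyl hydroxylases, among them Egln3, which mark the hypoxia-inducible factor (HIF) subunits Hif1a and Epas1 for degradation through the Vhl ubiquitin ligase. When oxygen is short the subunits persist, pair with Arnt and bind DNA at the letters ACGTG or GCGTG beside their target genes. Known targets raise glucose uptake, glycolysis, acid export and vessel growth, and they act in carcinoma cells, macrophages and neutrophils alike. HIF activity is set mainly by protein stability, so the mRNA of Hif1a itself need not follow it.

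LLC is a mouse lung carcinoma line that grows in C57BL/6 mice. The tumours grew in male mice, young or middle-aged, that were unirradiated or had received 5 exposures of 0.2 Gy of iron ions, and no other allele or agent is named for any group. The study held 10 young unirradiated, 8 young irradiated, 7 middle-aged unirradiated and 5 middle-aged irradiated tumours, with 6 arrays of cultured LLC cells, 3 in each of 2 batches, as technical controls. Each array measured RNA from pieces of a whole tumour on Illumina Mouse WG-6 BeadArrays, so host cells were included. No source used here says that each tumour came from a separate animal, and the p-values measure only the spread between these samples.

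High scores ran from 11.03 to 11.78 with a median of 11.20, and low scores from 9.68 to 10.39 with a median of 10.32. The high tumours were young unirradiated replicates 2, 4, 8 and 10, young irradiated replicates 5 and 7, middle-aged unirradiated replicate 6, and middle-aged irradiated replicates 4 and 5. The low tumours were young unirradiated replicates 6 and 9, young irradiated replicates 2 and 3, middle-aged unirradiated replicates 2, 3, 5 and 7, and middle-aged irradiated replicate 1. Every study group therefore gave tumours to both sides. The tumours just outside the ranks were young unirradiated replicate 1 at 10.90 and young unirradiated replicate 7 at 10.42, the top and bottom of the 10 tumours between the groups. All 28 scores lay above the cultured cells, which ran from 9.20 to 9.51.

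**Figure D1:**
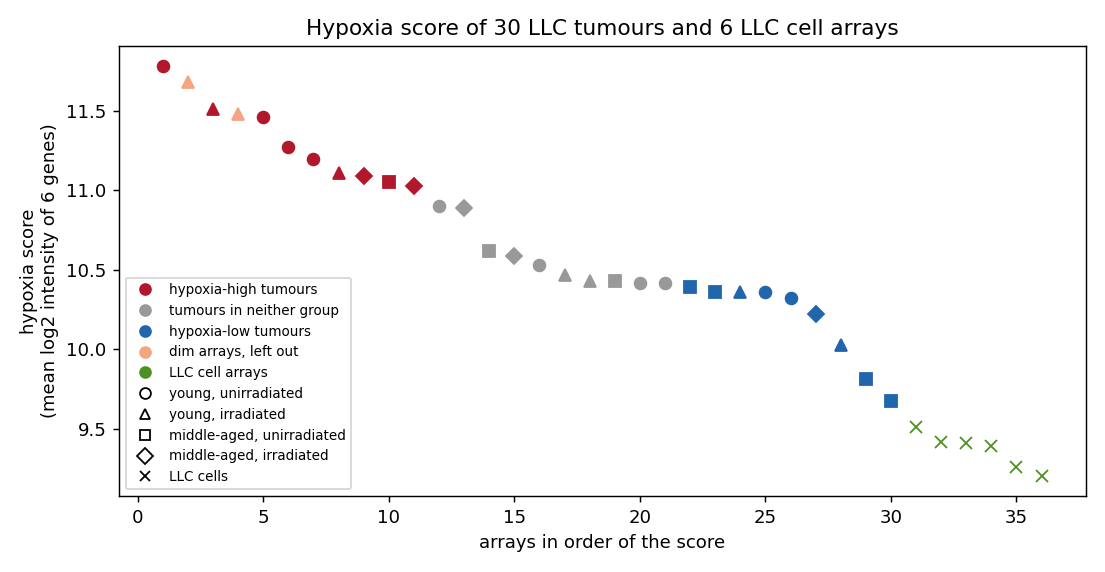
Hypoxia score of each array (mean log2 of the authors' normalized values of 6 genes, no unit) by study group, with high, between and low tumours coloured and the cell arrays beside them. High tumours sit between 11.03 and 11.78 and low tumours between 9.68 and 10.39, in all 4 tumour groups.

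By label, 4 of 10 young unirradiated tumours were high and 2 were low. Among the 6 bright young irradiated tumours 2 were high and 2 low. Middle-aged unirradiated tumours gave 1 high and 4 low of 7, and middle-aged irradiated tumours gave 2 high and 1 low of 5. Median scores of these groups were 10.71, 10.45, 10.39 and 10.89 in that order, and their ranges overlapped. The scores chose the tumours, so this split is a description with no test. The other 2 young irradiated tumours, replicates 6 and 8, fell under the brightness limit and were left out, with scores of 11.68 and 11.48.

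Among the 6 score genes, Adm, which encodes the vasodilator peptide adrenomedullin, lay furthest apart, from 9.56 through a median of 10.24 to 11.56 in the high tumours and from 7.78 through 8.66 to 8.91 in the low tumours. Vegfa, the main growth factor of blood vessels, ran from 10.57 through a median of 10.96 to 11.37 in the high tumours and from 8.90 through 9.73 to 10.06 in the low tumours. Slc2a1, the basal glucose transporter, ran from 13.14 through a median of 13.56 to 14.07 in the high tumours and from 11.51 through 12.77 to 12.96 in the low tumours. These 3 genes and Ankrd37, an ankyrin-repeat HIF target with a difference of group means of 0.95, separated the groups without overlap, which the choice of tumours by their mean favours. Ndrg1, a stress-induced gene, differed by 1.05 and Kdm3a, a histone demethylase, by 0.37 on this log2 scale. Their groups overlapped, with 6 and 7 of the 9 high tumours above every low one. Leaving out any single score gene kept 16 to 18 of the 18 tumours on their side.

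Across the other genes, 821 of 10855 tested differed between the high and low tumours at an adjusted p under 0.05 (limma, Benjamini-Hochberg over all genes), and 2834 at an unadjusted p under 0.05. Of these, 483 were higher in the high tumours, 4.45% of the genes tested, and 338 were lower, 3.11%. Levels here and below are log2 intensities after background correction and quantile normalization, one probe a gene, and differences are high minus low in log2 units with their standard error (SE), over 9 tumours a side. More than a 2-fold difference was found for 71 of the higher and 10 of the lower genes. The groups did not overlap at all for 31 genes, 0.286% of those tested, 24 higher and 7 lower. Each p measures association with a score read from the same arrays, not a response to oxygen or to a treatment. In bulk tumours, fewer cells of a type and less RNA per cell cannot be told apart.

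The number of calls and their balance depended on the processing. With the authors' normalized values 1268 genes were higher and 237 lower, and with plain median scaling 137 were higher and 480 lower, a setting that moved the median of all genes from -0.01 to -0.16. Leaving out young unirradiated replicate 10, 8, young irradiated replicate 7, or middle-aged unirradiated replicate 5, 3 or 2 left 420, 452, 500, 496, 411 and 463 calls respectively. The high arrays were dimmer, with 75th percentiles from 160 to 267 against 232 to 1123 in the low arrays, and detected 18432 to 19843 probes against 18124 to 19533. With brightness as a covariate 354 genes were called, and with the study group as one 242. Young hosts made up 6 of the high and 4 of the low tumours. Chip and batch are not given for the tumours in the sources used here, and their part was not tested.

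HIF target genes outside the score were mostly higher in the high tumours. Of 39 tested, 12 were called higher and 1 lower, 33 lay above 0, and their median difference was 0.34 against -0.01 over all genes tested. The mean level of the 39 ran from 9.35 through a median of 9.54 to 9.83 in the high tumours and from 9.09 through 9.12 to 9.22 in the low tumours, so all 9 high tumours lay above every low one. Between 12 and 14 were called higher when any single tumour was left out, 17 with the authors' values and 8 with median scaling. These are genes that are commonly induced with the score genes, so a shift in the same direction is close to what chose the tumours.

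Car9, a carbonic anhydrase of the cell surface that acidifies the outside of hypoxic cells, ran from 7.79 through a median of 8.58 to 10.09 in the high tumours and from 6.41 through 7.03 to 7.44 in the low tumours. The groups did not overlap, and the difference was 1.65 (SE 0.24, adjusted p = 0.00107). Its other 2 probes gave 0.47 and 1.29 (log2), and it was detected on none of the 6 cell arrays. Vldlr, a receptor for lipid-rich lipoproteins, ran from 7.12 through a median of 7.94 to 8.37 in the high tumours and from 5.33 through 6.14 to 6.57 in the low tumours. That difference, 1.62 (SE 0.19, adjusted p = 0.000192), had the smallest p of the list, and every high tumour was above every low one. Bhlhe40, a transcriptional repressor also known as a HIF target, ran from 10.89 through a median of 11.18 to 11.86 in the high tumours and from 9.91 through 10.36 to 10.60 in the low tumours. It too separated the groups, by 0.98 (SE 0.13, adjusted p = 0.000527).

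Pgm1, which feeds glucose released from glycogen into glycolysis, differed by only 0.38 (SE 0.07, adjusted p = 0.00489) but without overlap. Bnip3l, a receptor that marks mitochondria for removal, and Fam162a, a mitochondrial protein linked to cell death in hypoxia, also separated the groups, at 0.48 (adjusted p = 0.00988) and 0.48 (adjusted p = 0.0129). Among the others called higher, Pdk1, the kinase that keeps pyruvate out of the mitochondria, differed by 0.65 (adjusted p = 0.0061), and Hilpda, a lipid droplet protein that slows fat breakdown, by 0.94 (adjusted p = 0.00637). P4ha2, a collagen prolyl hydroxylase, differed by 0.90 (adjusted p = 0.00826), the metallothionein Mt2 by 1.13 (adjusted p = 0.00988), and Mxi1, an antagonist of Myc, by 0.98 (adjusted p = 0.0228). Tgfb3, a growth factor of the TGF-beta family that can be induced by HIF, went the other way at -0.78 (adjusted p = 0.0266), a call lost without young unirradiated replicate 8 or middle-aged unirradiated replicate 2. Most glycolytic targets did not pass the test, among them Ldha at 0.27, Pgk1 at 0.16 and Aldoa at 0.31.

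**Figure D2:**
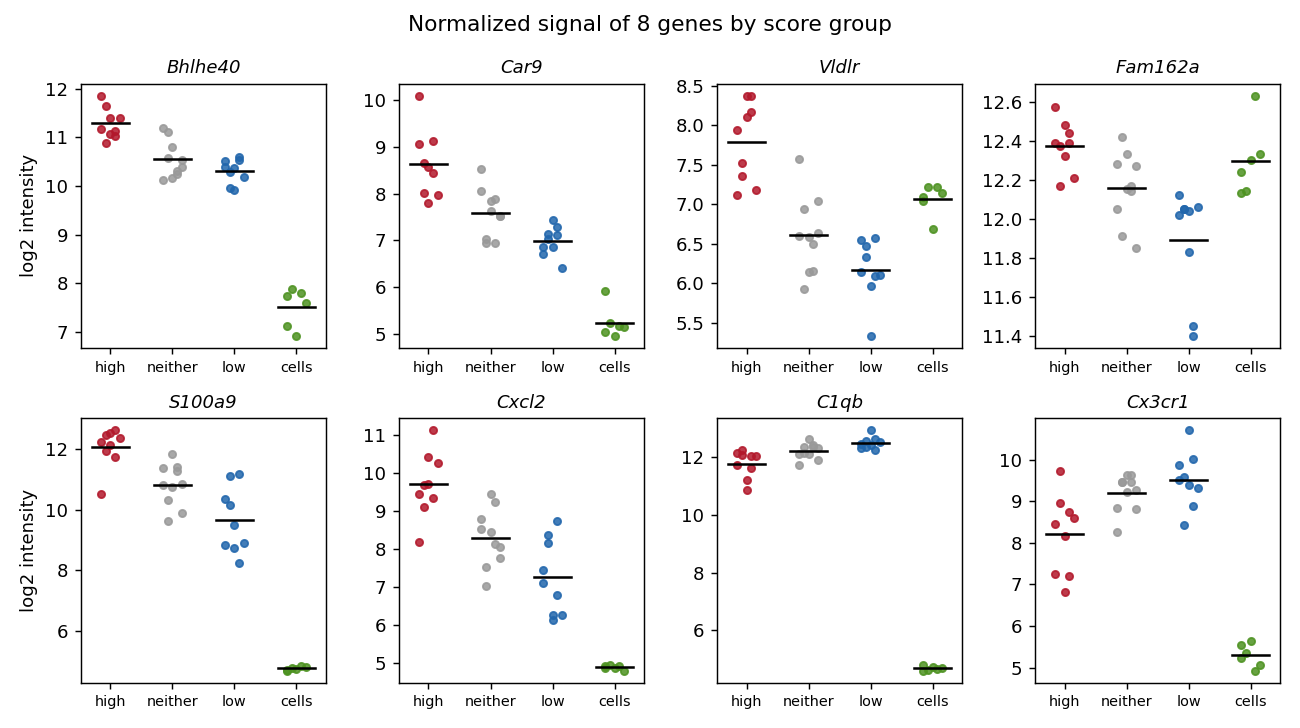
Log2 intensity (background-corrected, quantile-normalized) of selected genes in each high, between and low tumour and each cell array, with bars at group means. Car9, Vldlr, Bhlhe40, Fam162a and C1qb separate high from low tumours, while the ranges of S100a9, Cxcl2 and Cx3cr1 overlap. For C1qb the nearest high and low tumours both round to 12.25.

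The promoters of several of these genes carry the letters that HIF binds. Windows from 250 bases before to 50 bases after the start of a gene, from RefSeq on GRCm38.p6, were searched on both strands for the letters ACGTG. The second motif searched was GCGTG, also on both strands, and a stretch that reads ACGTG on each strand counts on each. Prxl2a, a peroxiredoxin-like protein, is printed because of the 14 genes with a window among the 15 largest rises it was the one that held both motifs. Fam162a, P4ha2 and Car9 were chosen after their values were seen, as HIF targets with many, several and a single match, and S100a9 as a large rise with none. Capitals mark the motif letters as they stand on the printed strand, some of them reversed and complemented, and each window is written along its gene from 5′ to 3′. Prxl2a lies on the minus strand at chr14:41013784-41014083, Fam162a on the minus strand at chr16:36071512-36071811, P4ha2 on the plus strand at chr11:54100674-54100973, Car9 on the plus strand at chr4:43506776-43507075 and S100a9 on the minus strand at chr3:90695672-90695971.
Prxl2a promoter: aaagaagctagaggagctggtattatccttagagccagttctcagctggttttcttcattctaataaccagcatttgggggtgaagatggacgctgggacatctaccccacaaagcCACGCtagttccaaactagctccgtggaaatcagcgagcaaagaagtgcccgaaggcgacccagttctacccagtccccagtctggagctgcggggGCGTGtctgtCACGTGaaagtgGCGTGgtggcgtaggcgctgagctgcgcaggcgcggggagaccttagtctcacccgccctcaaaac
Fam162a promoter: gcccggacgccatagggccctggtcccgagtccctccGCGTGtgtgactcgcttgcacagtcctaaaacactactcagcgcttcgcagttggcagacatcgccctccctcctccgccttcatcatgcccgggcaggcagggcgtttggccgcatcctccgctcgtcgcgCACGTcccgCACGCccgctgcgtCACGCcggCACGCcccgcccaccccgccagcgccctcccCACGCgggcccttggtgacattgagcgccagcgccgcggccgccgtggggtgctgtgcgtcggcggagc
P4ha2 promoter: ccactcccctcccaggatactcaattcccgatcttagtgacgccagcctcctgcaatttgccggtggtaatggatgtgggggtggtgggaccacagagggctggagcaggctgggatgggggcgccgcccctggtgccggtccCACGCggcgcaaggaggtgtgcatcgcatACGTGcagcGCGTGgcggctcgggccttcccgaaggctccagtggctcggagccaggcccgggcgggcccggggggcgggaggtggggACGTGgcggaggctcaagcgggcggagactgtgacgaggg
Car9 promoter: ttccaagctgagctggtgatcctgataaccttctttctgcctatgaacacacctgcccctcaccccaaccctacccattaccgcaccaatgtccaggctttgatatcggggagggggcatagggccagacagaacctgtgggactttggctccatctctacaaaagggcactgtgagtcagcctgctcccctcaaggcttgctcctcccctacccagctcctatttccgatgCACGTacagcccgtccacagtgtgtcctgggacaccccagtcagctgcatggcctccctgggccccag
S100a9 promoter: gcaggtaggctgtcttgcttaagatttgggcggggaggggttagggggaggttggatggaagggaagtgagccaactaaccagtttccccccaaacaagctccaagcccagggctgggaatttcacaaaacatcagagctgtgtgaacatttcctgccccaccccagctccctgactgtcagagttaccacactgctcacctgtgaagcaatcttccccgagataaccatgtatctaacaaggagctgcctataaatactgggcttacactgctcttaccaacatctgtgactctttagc

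Matches per window were 2 of ACGTG and 3 of GCGTG for Prxl2a, 1 and 5 for Fam162a, 2 and 2 for P4ha2, 1 and 0 for Car9, and none for S100a9. Either motif was present in 8 of the 10 HIF targets called higher that had a window and in 16 of the 20 not called, 80.0% of each. Over all 27025 genes with a window the share was 43.8%, and over the 8772 genes tested that had one it was 62.4%. Genes called higher held a motif in 60.4% of 389 windows and genes called lower in 57.0% of 265, both below the share of the genes tested. Neutrophil markers called higher held one in 1 of 9 windows. Both motifs contain the letters CG, and those windows held a median of 1.0 CG per 100 bases. The median was 6.67 for genes tested and 5.5 for HIF targets called higher, and the part of CG content in these shares was not tested. These letters are short, and a match is not a bound site.

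Regulators of the HIF pathway were examined beside its targets. Of 12 HIF subunits and regulators tested, 3 were called higher and none lower, with a median difference of 0.12 that became -0.01 under median scaling. Egln3, the prolyl hydroxylase that is itself a HIF target, differed by 0.56 (SE 0.12, adjusted p = 0.0116). Cited2, which competes with HIF for its coactivators, differed by 0.38 (adjusted p = 0.0249), and Vhl by 0.70 (adjusted p = 0.045). Cited2 lost its call without young unirradiated replicate 10 or middle-aged unirradiated replicate 3 (highest adjusted p = 0.0508), and Vhl in 9 of the 18 fits that leave out a tumour (highest 0.0886). Arnt lay at -0.52 (adjusted p = 0.0619), Hif1a at -0.04 and Epas1 at 0.10, none of them called.

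All 16 glycolysis enzymes and transporters tested lay above 0, with a median of 0.29. At an unadjusted p under 0.05 there were 10 of them, beside 2834 of all 10855 genes tested, but only 2 were called. These were Pdk1, given above, and the high-affinity glucose transporter Slc2a3 at 0.76 (SE 0.14, adjusted p = 0.00637). The lactate exporter Slc16a3 at 0.47 (adjusted p = 0.0677) and the triose phosphate isomerase Tpi1 at 0.30 (adjusted p = 0.0767) did not pass. Among 6 genes of pH and lactate handling, 2 were called higher and the median was 0.47. Beside Car9 this was Bsg, the chaperone of lactate transporters, whose probe was detected in 5 high tumours and in none of the low ones. Its measured means were 5.58 and 5.11 with an adjusted p of 0.0221, both so near background that no fold is given, and it was detected on no cell array. Bsg passed the detection filter through the high tumours, so its call adds no support to the list. Car2, an intracellular carbonic anhydrase, differed by 1.01 (adjusted p = 0.0823) without passing. Of 19 oxidative phosphorylation genes limma called 0, 1 at an unadjusted p under 0.05, with a median of -0.01.

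Genes that followed the score most closely over all 28 tumours included several outside the HIF list. Bhlhe40 had the highest Pearson r, 0.90 (Spearman rho 0.81), followed by Igfbp3, a carrier that binds insulin-like growth factors, at 0.89 (rho 0.84). Next came Tnfrsf9, a costimulatory receptor of activated lymphocytes and endothelium, at 0.89 and Mgarp, a mitochondrial transport protein, at 0.87. The rest of the nearest 10 were Rusc2, Prxl2a, Mtss1, Fam71f2, Timm10 and Nedd4l, from 0.87 down to 0.83. Without the 2 tumours furthest from the median score, young unirradiated replicate 10 and young irradiated replicate 7, the r of Bhlhe40 was 0.85 and that of Mgarp 0.87. All points share arrays with the score, and these r values are descriptions.

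Of these, Tnfrsf9 ran from 8.14 through a median of 8.41 to 9.48 in the high tumours and from 6.67 through 7.32 to 7.70 in the low tumours. Mgarp ran from 7.99 through a median of 8.37 to 9.21 in the high tumours and from 6.57 through 7.28 to 7.67 in the low tumours. Neither overlapped between the groups, with differences of 1.26 (SE 0.16, adjusted p = 0.000424) and 1.30 (SE 0.18, adjusted p = 0.000652). Prxl2a, whose promoter is printed above, ran from 8.56 through a median of 9.54 to 10.36 in the high tumours and from 6.80 through 7.71 to 8.62 in the low tumours, with 8 of 9 high tumours above every low one. Igfbp3 differed by 1.18 (adjusted p = 0.00478) and Igfbp7 by 0.59 (adjusted p = 0.0157), the 2 called of 11 genes of IGF binding and growth factors, whose median was -0.03. Mtss1, an actin and membrane scaffold, differed by 1.28 (adjusted p = 0.00145), and Nedd4l, a ubiquitin ligase, by 0.57 (adjusted p = 0.00342) without overlap.

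The largest rises were led by transcripts of neutrophils, the short-lived granulocytes that enter inflamed and necrotic tissue. Of 15 neutrophil markers tested, 10 were called higher and none lower, all 15 lay above 0, and the median difference was 1.34 against -0.01 over all genes. The mean level of the 15 ran from 7.47 through a median of 8.09 to 8.54 in the high tumours and from 6.21 through 6.62 to 7.87 in the low tumours, with 7 of 9 high tumours above every low one. Cell arrays lay between 4.95 and 5.15 on this scale, and 8 of the 10 called markers were detected on none of them. From 9 to 12 were called higher when any single tumour was left out. The part of neutrophil content in the other differences was not tested.

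S100a9 and S100a8 encode the calcium-binding pair that makes up much of the neutrophil cytosol. S100a9 ran from 10.51 through a median of 12.26 to 12.63 in the high tumours and from 8.24 through 9.50 to 11.18 in the low tumours. Its difference was 2.41 (SE 0.38, adjusted p = 0.00174), and S100a8 differed by 1.83 (SE 0.35, adjusted p = 0.00637). Retnlg, a resistin-like secreted protein of granulocytes, had the largest rise of the genes called, 2.49 (SE 0.49, adjusted p = 0.00698). The high tumours ran from 7.85 to 9.87, but low tumours spread from 5.25 to 10.13 where young unirradiated replicate 6 lay above every high tumour. Lcn2, an iron-scavenging lipocalin, differed by 2.07 (adjusted p = 0.00581), and Il1r2, a decoy receptor for interleukin-1, by 1.34 (adjusted p = 0.00637). The chemokine receptors Cxcr2 at 1.50 (adjusted p = 0.011) and Cxcr1 at 1.72 (adjusted p = 0.00259) were higher too, as was the granulocyte growth factor receptor Csf3r at 1.25 (adjusted p = 0.0141). Cxcr1 was detected in 8 high and 2 low tumours. The high tumours alone carried it past the detection filter, so its call adds no support to this rise. Among the 5 markers that did not pass were the granule genes Ltf at 1.66 (adjusted p = 0.0539), Ngp at 0.75 (adjusted p = 0.0868) and Camp at 0.69 (adjusted p = 0.195).

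**Figure D3:**
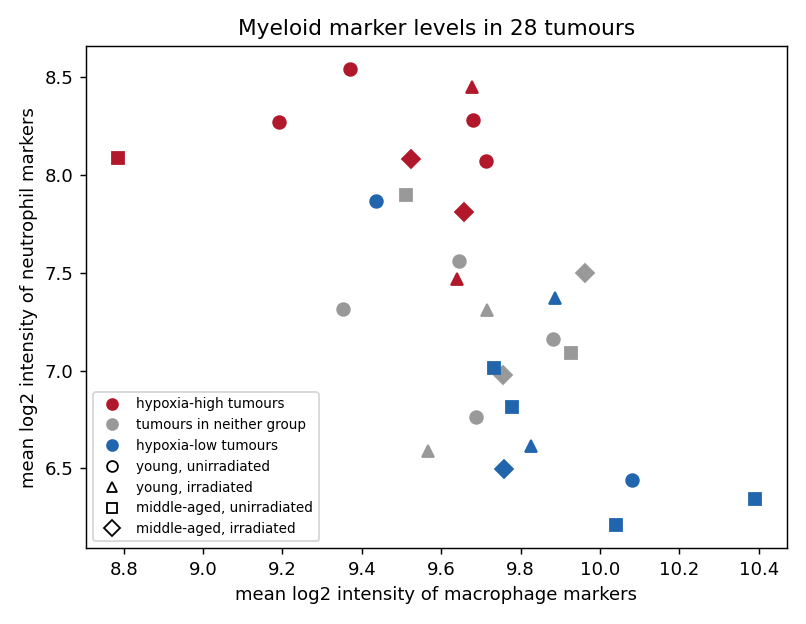
Mean log2 level of the macrophage markers against that of the neutrophil markers, one point a tumour, coloured by class. High tumours lie between 7.47 and 8.54 for neutrophil markers and between 8.79 and 9.71 for macrophage markers, and low tumours between 6.21 and 7.87 and between 9.44 and 10.39.

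Chemokines that draw neutrophils were also higher. Of 14 inflammatory cytokines and chemokines tested, 6 were called higher and none lower, with a median of 0.58. Cxcl2, a ligand of Cxcr2, ran from 8.19 through a median of 9.70 to 11.13 in the high tumours and from 6.13 through 7.11 to 8.74 in the low tumours. It differed by 2.45 (SE 0.39, adjusted p = 0.00174), and its second probe gave 2.35 (log2). Cxcl1, another Cxcr2 ligand, differed by 1.20 (adjusted p = 0.0249), the macrophage inflammatory proteins Ccl3 and Ccl4 by 1.36 (adjusted p = 0.0246) and 1.09 (adjusted p = 0.0181), and the cytokine Il1b by 1.22 (adjusted p = 0.0363). Ptgs2, the inducible cyclooxygenase, differed by 0.86 (adjusted p = 0.0275). The count fell to 4 without young irradiated replicate 7 or middle-aged unirradiated replicate 2. Ccl2, which draws monocytes, lay at 0.67 (adjusted p = 0.118) and Ccl5 at -0.47 (adjusted p = 0.325), neither of them called.

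Slpi, a secreted inhibitor of neutrophil elastase, differed by 2.34 (SE 0.37, adjusted p = 0.00174) and was detected on all 6 cell arrays. Sprr2e, a small proline-rich protein of stressed epithelium, differed by 2.29 (SE 0.36, adjusted p = 0.00174) and was detected on none. Hdc, which makes histamine, differed by 1.88 (adjusted p = 0.0025), and Hcar2, a receptor for nicotinic acid and ketone bodies, by 1.72 (adjusted p = 0.0153). G0s2, an inhibitor of fat breakdown, differed by 1.71 (adjusted p = 0.00896). The stefin genes Stfa1, counted above among the neutrophil markers, and Cstdc4 differed by 1.71 (adjusted p = 0.0252) and 1.72 (adjusted p = 0.0323), and Apol11b by 1.67 (adjusted p = 0.0349). Stfa1 stood at 10.25 in young irradiated replicate 5, while the other high tumours lay at 6.67 or below, under the highest low tumour at 6.80. Its difference was as low as 1.285 in the fits that leave out a tumour (highest adjusted p = 0.049). Stefins are near-identical copies whose probes may share targets, and Cstdc4 and Apol11b lost their calls in 7 and 9 of the 18 fits that leave out a tumour (highest adjusted p = 0.0628 and 0.0706).

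Several macrophage markers were lower in the high tumours. Of 21 tested, none was called higher and 7 lower, 2 lay above 0, and the median was -0.42. Their mean level ran from 8.79 through a median of 9.64 to 9.71 in the high tumours and from 9.44 through 9.83 to 10.39 in the low tumours, and 3 of 9 high tumours lay below every low one. None of the 7 was detected on a cell array. The 3 chains of complement C1q, which macrophages of tissue make in quantity, were among them, and C1qb ran from 10.86 through a median of 12.05 to 12.25 in the high tumours and from 12.25 through 12.47 to 12.93 in the low tumours. Its difference was -0.73 (SE 0.16, adjusted p = 0.0141) with no overlap, although the nearest high and low tumours both round to 12.25. C1qc differed by -0.77 (adjusted p = 0.0141) and C1qa by -0.69 (adjusted p = 0.0377). Lysozyme, Lyz2, differed by -0.70 (adjusted p = 0.00795), the sialic acid receptor Siglec1 by -0.67 (adjusted p = 0.0419) and the lysosomal protein Laptm5 by -0.42 (adjusted p = 0.0402). Cx3cr1, the fractalkine receptor of monocytes and resident macrophages, had the largest fall of the list, -1.31 (SE 0.35, adjusted p = 0.0277). Cx3cr1 lost its call without young unirradiated replicate 10 or middle-aged unirradiated replicate 3 or 2 (highest adjusted p = 0.058), and without any one of these the list had 3 calls. The count was also 3 with the authors' values, with the study group or brightness as a covariate, or without the 2 high tumours that held muscle transcripts.

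Among the genes called, the largest fall was that of Slamf9, a receptor of macrophages and dendritic cells. It ran from 7.72 through a median of 9.26 to 10.22 in the high tumours and from 9.90 through 10.47 to 11.20 in the low tumours and differed by -1.44 (SE 0.32, adjusted p = 0.0144). Vsig4, a complement receptor of resident macrophages, differed by -1.24 (SE 0.21, adjusted p = 0.00324). Cd72 at -1.12 (adjusted p = 0.0204), Cd83 at -1.05 (adjusted p = 0.035), Ly9 at -1.04 (adjusted p = 0.00449) and Cd180 at -0.92 (adjusted p = 0.00842) are receptors of B cells and antigen-presenting cells. The phosphatase Ptpro at -0.98 (adjusted p = 0.0129) and the lipid transfer protein Pltp at -0.92 (adjusted p = 0.00637) were lower as well. Dock2, a leukocyte regulator of cell migration, was detected in none of the high tumours and was at least 1.14-fold lower there, with an adjusted p of 0.0168. Dock2 passed the detection filter only through tumours outside the high group, so its call adds no support to these falls. Among the remaining falls were Mfap4, a microfibril protein, at -1.43 (adjusted p = 0.0432), Ambp at -0.92 (adjusted p = 0.00826), Zfp58 at -1.02 (adjusted p = 0.0231), Sobp at -0.95 (adjusted p = 0.0442) and cathepsin A, Ctsa, at -1.001 (adjusted p = 0.0141). Of these, Mfap4 and Sobp lost their calls in 13 and 14 of the 18 fits and Cd83 in 7, and the other probes of Ctsa gave -0.17 to 0.17.

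Interferon-response genes leaned downward, with 2 of 19 called lower, 1 called higher, 2 above 0 and a median of -0.51. Isg15, a ubiquitin-like protein induced by interferon, differed by -1.30 (SE 0.30, adjusted p = 0.0153) and Ifit3 by -0.87 (adjusted p = 0.0348), which was lost in 10 of 18 fits. The member called higher, the GTPase Irgm1 at 0.67 (adjusted p = 0.0362), had a second probe at -0.21 and was lost in 9 of 18 fits. From 1 to 5 genes were called lower when any single tumour was left out, and none in either direction with the study group or brightness as a covariate. All 8 MHC class II genes, which present antigen to helper T cells, lay below 0 with a median of -0.61, and limma called 0, 4 at an unadjusted p under 0.05, with Cd74 at -0.96 (adjusted p = 0.0876). Of 12 MHC class I genes 10 lay below 0 and limma called 0, 3 unadjusted, the nearest being Psmb10 at -0.39 (adjusted p = 0.0532).

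Lymphocyte markers showed no common direction. Of 9 T and NK cell genes tested, Prf1 was called higher at 1.42 (adjusted p = 0.0184) but its second probe gave 0.06, and Cd8b1 was called lower at -0.31 (adjusted p = 0.0483), a call lost in 14 of the 18 fits that leave out a tumour. Of 10 tumour macrophage products 1 was called, Fn1, which was lower and is also counted as a matrix gene. The median of these 10 was 0.35, with 6 above 0 and 7 at an unadjusted p under 0.05. Cd274, the checkpoint ligand known to respond to HIF, lay at 0.65 (adjusted p = 0.0595) and Nos2 at 0.70 (adjusted p = 0.084), neither called.

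**Figure D4:**
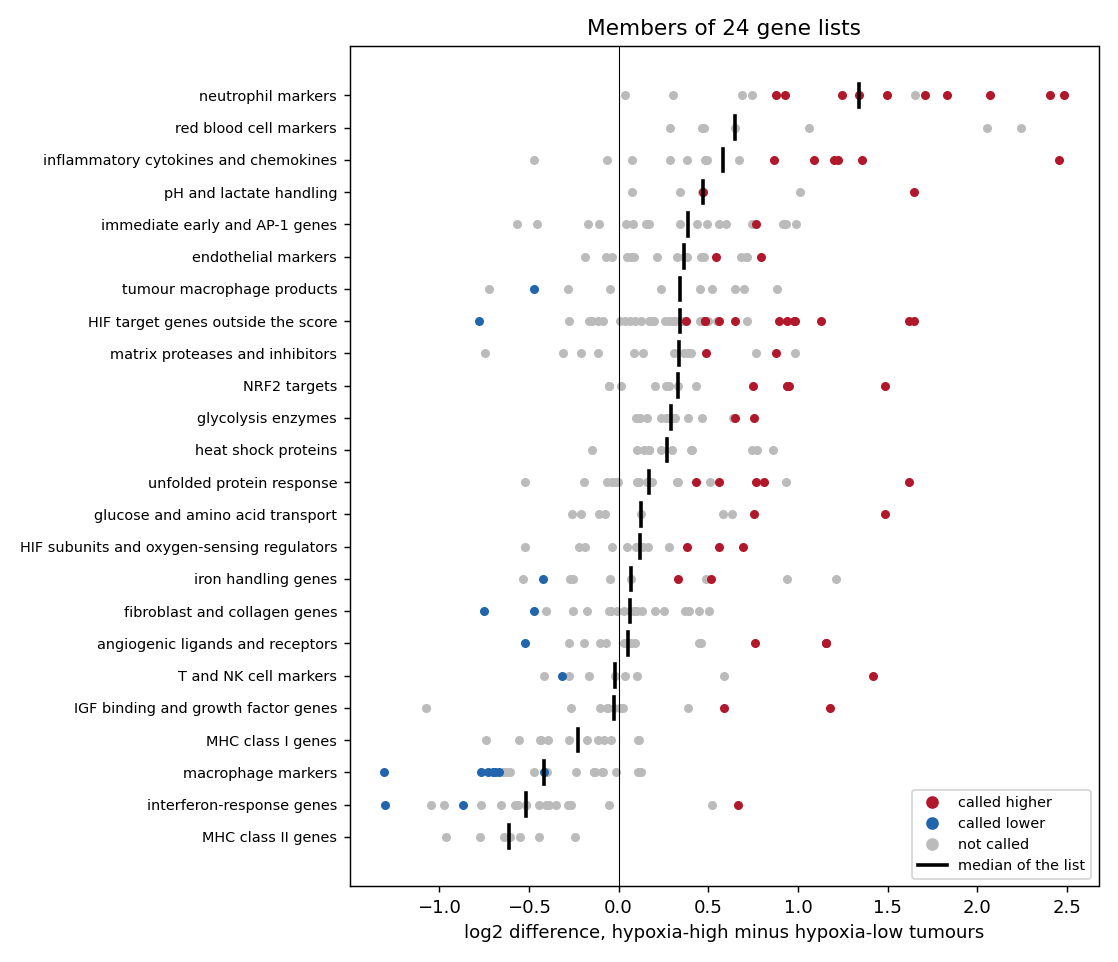
High minus low difference (log2) of every tested member of the described gene lists, one point a gene, with the list median as a bar and called genes filled. Neutrophil markers centre on 1.34, HIF targets on 0.34 and macrophage markers on -0.42, while all genes tested centre on -0.01.

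Some vessel genes were higher. Of 17 endothelial markers 2 were called higher and none lower, 14 lay above 0, and the median was 0.37. Plvap, the diaphragm protein of leaky capillaries, differed by 0.80 (SE 0.20, adjusted p = 0.0249) and Robo4, a receptor that steadies the vessel wall, by 0.54 (SE 0.14, adjusted p = 0.0278). At an unadjusted p under 0.05 there were 10 of the 17. From 1 to 5 were called higher when any single tumour was left out. The count was 1 without young unirradiated replicate 10 or 8 or middle-aged unirradiated replicate 3. Pan-endothelial markers were not called, with Pecam1 at 0.21 and Cdh5 at 0.33. Besides Vegfa, 3 of 16 angiogenic ligands and receptors were called higher and 1 lower, and the median of 0.05 became -0.10 under median scaling. Angpt2, which loosens vessels, differed by 0.76 (adjusted p = 0.0168) although its other probe gave -0.12. Pgf, a relative of Vegfa, differed by 1.16 (adjusted p = 0.0265) and Esm1, a marker of sprouting tip cells, by 1.16 (adjusted p = 0.0386), a call lost in 9 of the 18 fits (highest 0.0788). Nrp1, a co-receptor for Vegfa that carcinoma cells also express, was lower without overlap, -0.52 (SE 0.10, adjusted p = 0.00637). Without young unirradiated replicate 10 or middle-aged unirradiated replicate 3 only 1 of these rises was called.

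Of 19 fibroblast and collagen genes 2 were called lower, fibronectin (Fn1) at -0.47 (adjusted p = 0.0329) and lumican (Lum) at -0.75 (adjusted p = 0.0431), and the median of 0.07 turned to -0.08 under median scaling. These calls were lost in 6 and 11 of the 18 fits that leave out a tumour, and Fn1 was at 0.02 in the authors' values. Among 14 matrix proteases and inhibitors, Mmp9, a gelatinase that neutrophils carry, differed by 0.88 (adjusted p = 0.0298) and Plaur, the urokinase receptor, by 0.49 (adjusted p = 0.0457), lost in 4 and 13 fits. Red blood cell genes lay above 0 in 7 of 7 with a median of 0.65, and limma called 0, 3 at an unadjusted p under 0.05. The erythroid band protein Slc4a1 at 2.06 (adjusted p = 0.0799) and the heme enzyme Alas2 at 2.24 (adjusted p = 0.0838) had wide spreads. The mean red cell level ran from 8.45 through a median of 10.55 to 12.04 in the high tumours and from 8.09 through 9.70 to 10.14 in the low tumours, and its part in the other results was not tested.

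Skeletal muscle transcripts, which mark host tissue taken with a tumour, were uneven. Their mean level over 15 genes was 11.38 in young unirradiated replicate 8 and 9.67 in middle-aged irradiated replicate 4, both high, and 8.56 in middle-aged irradiated replicate 1, which was low. The other tumours of the contrast lay under 8. Without the 2 high tumours, 7 against 9, there were 407 calls, and the low tumour stayed in that fit. The fit left out tumours over 8 in the mean of all 18 listed muscle genes with a probe, a wider set than the 15 above. Only the 2 high tumours exceeded that limit, so the removal was one-sided.

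Some genes of the cell's stress responses were higher. Of 22 genes of the unfolded protein response 5 were called higher and none lower, with a median of 0.17. Beside Vldlr these were Trib3, a pseudokinase, at 0.81 (SE 0.17, adjusted p = 0.00988), Ppp1r15a, which restores translation, at 0.77 (adjusted p = 0.0235), Ddit3, a death-promoting transcription factor, at 0.56 (adjusted p = 0.0249), and Atf4, their common regulator, at 0.43 (adjusted p = 0.0446). These belong to the amino acid and eIF2 branch, whereas the chaperone Hspa5 lay at 0.19 (adjusted p = 0.664). With brightness as a covariate 2 of the 5 were called, and under median scaling 1 was called higher and 1 lower. Of 12 heat shock genes limma called 0, 4 at an unadjusted p under 0.05, the nearest being Hspa1b at 0.77 (adjusted p = 0.0537).

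Of 13 targets of NRF2, the factor that answers oxidative stress, 4 were called higher and none lower, with a median of 0.33. Gclm, which helps make glutathione, differed by 0.95 (SE 0.17, adjusted p = 0.00449) and Gstm1, a glutathione transferase, by 0.75 (adjusted p = 0.0191). The cystine importer Slc7a11 differed by 1.49 (adjusted p = 0.0228), with other probes from -0.19 to 1.07, and Txnrd1, a thioredoxin reductase, by 0.94 (adjusted p = 0.0251). Txnrd1 lost its call without young unirradiated replicate 10 or middle-aged unirradiated replicate 3 (highest adjusted p = 0.0515). Among 18 immediate early genes Ier3 was called at 0.77 (SE 0.14, adjusted p = 0.00478), while Atf3 at 0.93 (adjusted p = 0.0681), Dusp1 at 0.92 (adjusted p = 0.0717) and Myc at 0.56 (adjusted p = 0.0829) were not. Iron handling gave 3 calls of 11, Slc11a2 at 0.33 (adjusted p = 0.0276), the ferritin light chain Ftl1 at 0.52 (adjusted p = 0.0406) and the reductase Steap3 at -0.42 (adjusted p = 0.0381), lost in 3, 11 and 11 fits.

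Growth genes gave no call. Among 21 cell cycle genes, 15 replication genes and 13 cytosolic ribosomal proteins limma called 0, with 5, 5 and 2 at an unadjusted p under 0.05 and medians of 0.11, -0.10 and 0.06. The first became -0.09 under median scaling.

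The cultured LLC cells gave the transcripts of carcinoma cells without host tissue. Of all genes tested, 74.8% were detected on all 6 cell arrays and 9.60% on none. Among genes called higher, 362 of 483 (75.0%) were detected on all and 77 (15.9%) on none, and among genes called lower 253 of 338 (74.9%) and 44 (13.0%). HIF targets called higher were mostly detected in culture, with 11 of 12 detected on all 6 arrays and Car9 alone on none. Of the neutrophil markers called higher, 0 of 10 were detected on all 6. Culture is not the tumour, and a gene undetected there can still be made by carcinoma cells in the animal.

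The 10 tumours between the groups were samples that the contrast did not use, over a narrow range of scores from 10.42 to 10.90. No gene was called on the score there (limma, 452 at an unadjusted p under 0.05), and the genes nearest to a call were Tmem229b at a slope of -1.81 and Dcaf10 at 1.62 log2 units per unit of score, with D17H6S56E-5 at 1.88 and Selplg at -1.48, all at an adjusted p of 0.989. Of the 483 genes called higher, 338 (70.0%) had a slope above 0 in these 10 tumours, where 47.0% of all genes did. Of the 338 called lower, 215 (63.6%) had a slope below 0. HIF targets called higher had a slope above 0 in 11 of 12 genes, neutrophil markers in 6 of 10 and the called cytokines in 4 of 6, and macrophage markers called lower had one below 0 in 5 of 7. Median slopes of these sets in the 10 tumours were 0.67, 0.17, 0.15 and -0.46 log2 units per unit of score, in the same order. The rise of the neutrophil markers and cytokines was thus small there.

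Slopes on the score were also fitted within hosts of each kind over all 28 tumours. For the 12 HIF targets called higher the median slope was 0.81 log2 units per unit of score in young and 0.69 in middle-aged hosts, and 0.86 in unirradiated and 0.65 in irradiated hosts. For the 10 neutrophil markers the medians were 1.09, 1.22, 1.35 and 1.12, and for the 7 macrophage markers -0.48, -0.87, -0.75 and -0.23. These tumours include those that gave the calls, so the slopes are a description. Over whole lists, called or not, the medians in the same order were 0.29, 0.26, 0.28 and 0.21 for the 39 HIF targets. They were 1.08, 1.07, 1.19 and 0.97 for the 15 neutrophil markers. For the 21 macrophage markers they were -0.18, -0.49, -0.43 and -0.08.

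No gene's slope was called different between young and middle-aged hosts (0 called by limma's interaction test, 806 at an unadjusted p under 0.05) or between irradiated and unirradiated hosts (0 called, 563 unadjusted). Nearest to a call for age was Apoe, a lipid carrier made by macrophages, with slopes of -0.12 in young and -1.36 in middle-aged hosts and an adjusted p of 0.103. The hormone gene Iapp at an interaction of -1.35 (adjusted p = 0.103), Mkx at 1.30 and Pign at 0.81 also missed the threshold. For irradiation, M1ap at 0.91, Pex11g at 0.98, Zcwpw1 at -0.84 and Nufip2 at -1.10 all had an adjusted p of at least 0.884.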

How the data were processed

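Transcripts were measured on Illumina Mouse WG-6 arrays. Per the labels and series text, RNA was taken with TRIzol or spin columns, filtered on integrity, amplified and labelled with biotin. The authors deposited each probe's mean bead intensity and detection p-value exported from GenomeStudio according to the submitters' processing notes and, per the file headers, with those columns for each array (version not given in the sources used here), without normalization between arrays. A second deposited table holds intensity values that the series text calls rank variant normalized, with scale and floor unstated. These values formed the score and served as an alternative.

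Deposited intensities of 36 arrays were corrected and quantile normalized with neqc (limma 3.58.1, R 4.3.3, offset 16, background estimated from the detection p-values). Of 45281 probes, 34885 had 1 gene symbol in the platform annotation, 18 several and 10378 none listed. The brightest probe stood for a gene. Genes detected in at least 5 of the 28 tumours were tested, without the 6 score genes, by lmFit and eBayes with Benjamini-Hochberg adjustment over all genes and a threshold of 0.05. The number of arrays limits precision, and no counts lie behind these values. The "at least" folds set a detected group against the lowest detected signal of the other arrays. The method was tested on simulated data.

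The members and the 43 gene lists (717 entries, 654 with a probe, 24 lists described by rule) were chosen with earlier results of these data known. Genes named are the 15 largest rises and falls, up to 4 members a list by p, and the 10 nearest to the score by r. Other list members and genes without overlap were named after their values were seen. Promoters came from RefSeq (GRCm38.p6), with 4163 genes having several windows, of which the first listed was used. Alternatives are given in the closing section.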

Additional observations from a re-analysis of the deposited data

Results flagged for a closer look

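In 300 groups of 9 high or low tumours looked at gene by gene, 23 values stood far from the rest of their group by Dixon's test, which chance does for about 1 group in 20. Young irradiated replicate 5 held 4 of them among the high tumours. It was the lowest for Retnlg at 7.85, S100a9 at 10.51 and S100a8 at 11.72, and the highest for Stfa1 at 10.25, where the next tumour lay at 6.67. Young unirradiated replicate 10, the tumour with the highest score, was the highest for Tnfrsf9 at 9.48, Car2 at 8.79, Mipol1 at 7.57 and Peak1 at 9.17. Young unirradiated replicate 2 was the highest for Igfbp7 at 12.90.

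Among the low tumours, middle-aged unirradiated replicate 2, the tumour with the lowest score, was the lowest for Adm at 7.78 (the authors' values) and Pdk1 at 9.32 and the highest for Sobp at 8.98 and Atf3 at 7.57. Young unirradiated replicate 6 was the highest for Retnlg at 10.13 and Stfa1 at 6.80. Young irradiated replicate 2, the brightest array of the group, was the lowest for Mfap4 at 5.57, Tpi1 at 12.80, Ftl1 at 11.99 and Csnk1d at 10.00 and the highest for Il7r at 6.88. Single values stood apart for Vldlr at 5.34 in young irradiated replicate 3, Esm1 at 7.13 in middle-aged irradiated replicate 1 and Sox18 at 6.32 in middle-aged unirradiated replicate 3, each the lowest.

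The 2 young irradiated tumours left out as dim, replicates 6 and 8, had scores of 11.68 and 11.48, above the highest cell array at 9.51 and inside the range of the high tumours.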

How the results depend on the processing

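The 821 calls between high and low tumours became 1505 with the authors' normalized values, 2001 with the score as a number over 28 tumours, 407 without the 2 high tumours that held muscle transcripts, 354 with brightness as a covariate, 242 with the study group as a covariate, 237 with the score taken from background-corrected values and 119 with the top 7 against the bottom 7. The score from background-corrected values kept 9 of the 9 high and 8 of the 9 low tumours, so that fit was still 9 against 9. Leaving out single tumours gave 411 to 1124 calls. With the score as a number, 19 genes were called in the young unirradiated tumours alone. Within all young and all middle-aged tumours, settings chosen after seeing the data, 348 and 151 were called. Fewer samples enter these fits, and the cause of the other changes was not tested. Replicate numbers repeat across the study groups. The deviations of 34 pairs with the same number had a median correlation of 0.01, as did pairs with different numbers, and ran from -0.32 to 0.38. The median gave no sign that the numbers pair the tumours, but shared handling of some tumours was not tested. A fit with replicate number as a block called 3 genes (limma, 1831 at an unadjusted p under 0.05). It compares high with low tumours only within a number, and only the numbers 2, 5, 6 and 7 occur on both sides. Fewer tumours therefore bear on the difference in that fit, and the part of any other cause in the smaller count was not tested. Of the genes named, 4 changed direction in a setting: Slc16a3 at -0.024 in the young unirradiated tumours, Car2 at -0.0591 and Dusp1 at -0.0451 in the middle-aged tumours, and Fn1 at 0.0156 with the authors' values. All 821 kept their sign under median scaling and in every fit that left out a tumour, 819 with the authors' values and 814 with the mean of a gene's detected probes. The fits of the 10 tumours between the groups and of the age and irradiation interactions called 0 genes with brightness as a covariate, with uncorrected intensities and on the authors' table. For genes undetected in a whole group the signal over background allows only a bound.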

Other observations

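Histone genes were not in a list but stood out among genes without overlap, and were gathered after their values were seen. Of 53 histone genes tested, 21 were called higher in the high tumours and none lower, 46 lay above 0, and the median difference was 0.29. Over all genes tested 4.45% were called higher and 3.11% lower, and 0.286% did not overlap. The histone genes were gathered for standing out in this same contrast, so their counts are a description. H4c12 ran from 8.53 through a median of 8.98 to 9.60 in the high tumours and from 7.47 through 7.82 to 8.34 in the low tumours, with a difference of 1.16 (SE 0.14, adjusted p = 0.000192). H4c6 at 0.89 (adjusted p = 0.00123), H2ac19 at 0.72 (adjusted p = 0.00255) and H4c18 at 0.63 (adjusted p = 0.00637) separated the groups as well. Histone genes are near-identical copies, so their probes may share targets, and the cell cycle and replication lists held no call. The 7 histone genes below 0 included the variants H2ax and H2az1.

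Other genes without overlap were Il33, an alarm cytokine released by damaged cells, at 0.76 (adjusted p = 0.00077), Rgs16, a brake on G protein signalling, at 1.14 (adjusted p = 0.00174), Ppp1r3b, which steers glycogen synthesis, at 1.07 (adjusted p = 0.00345), and Sod2, the mitochondrial superoxide dismutase, at 0.41 (adjusted p = 0.00988). Nudcd3 at -0.73, Dido1 at -0.53, Ganab at -0.56, Zfp672 at -0.48 and Prr3 at -0.42 were lower. The other probes of Nudcd3, Trp53bp1 (at 0.54), Kansl2 (at 0.38) and Mipol1 (at 0.58) lay near 0.

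Prf1, Zxda, Erich5, Ccdc144b, Cyp20a1 and Hykk, which share no list, had like ranges. Prf1 ran from 9.26 to 12.70 in the high tumours and from 8.78 to 9.68 in the low tumours, and Zxda from 8.78 to 12.48 and from 8.15 to 9.38. Over 28 tumours the 15 pairwise r values of these 6 genes ran from 0.50 to 0.98 with a median of 0.80, and from 0.29 to 0.97 without the 2 tumours highest for them. The second Prf1 probe had an r of 0.10 with the first. The genes were chosen for their likeness, so these are descriptions.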
